A study of Rattus norvegicus with 138 samples.

Results

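The adult myosin heavy chain genes Myh1, Myh2, Myh4 and Myh7 were chosen by symbol from a table of 16181 gene symbols. All 4 were present, and all 4 passed the filter on low values, which left 11328 genes for testing. They were followed in whole tibialis anterior (TA) muscle of male Lewis rats, an inbred strain, of about 4 months of age, with levels given as TPM, transcript abundance scaled to the library's total and corrected for transcript length. In volumetric muscle loss (VML) a biopsy punch removed a full-thickness piece from the middle of 1 TA muscle, and the muscle was collected 3, 7, 14 or 28 days later. The defect was left unfilled (no repair) or filled with the excised tissue after mincing (autologous minced muscle graft, MMG), each in rats labelled as running or non-running. The intact TA of the other leg is called contralateral, and the control muscles, which the labels call sham at day 0 and the study describes as unoperated, were both TA muscles of 2 non-running rats without repair. After 13 libraries with fewer than 7000 symbols above 1 TPM were dropped, 114 muscles of 78 rats in 31 groups remained: 4 control, 34 contralateral and 76 injured. Of the injured muscles 42 came from non-running rats, namely 10, 16, 8 and 8 at 3, 7, 14 and 28 days, and 22 non-running rats had both muscles measured.

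Skeletal muscle fibers are named after the myosin heavy chain that drives their contraction, and each chain sets how fast the fiber shortens and how much ATP it spends. Myh4 encodes the type IIB chain of the fastest, glycolytic fibers, Myh1 the type IIX chain, Myh2 the type IIA chain of fast oxidative fibers, and Myh7 the slow type I chain that is also the beta chain of the heart. The TA lifts the foot and is in rodents a mainly fast muscle, and a fiber can replace one chain by another after changes in nerve activity, load or regeneration.

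In the GRCr8 rat assembly the 3 fast genes lie in tandem on the forward strand of chromosome 10 within 89.6 kb, in the order Myh2 (52355739 to 52382235), Myh1 (52384810 to 52408698) and Myh4 (52422148 to 52445296), whereas Myh7 lies on the reverse strand of chromosome 15 (32416525 to 32439851), 2861 bases from its neighbor Myh6. The promoters of the 3 fast genes are shown because these genes changed unequally after injury while sharing a block of sequence upstream. The printed stretches are from the RefSeq promoter windows (GRCr8, forward strand) at chr10:52355529-52355628, chr10:52384706-52384805 and chr10:52421931-52422030. The capitals mark the longest run of bases that all 3 windows share, 20 bases long, with 40 bases on either side.
Myh2: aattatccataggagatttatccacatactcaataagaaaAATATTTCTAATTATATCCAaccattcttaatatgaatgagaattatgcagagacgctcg
Myh1: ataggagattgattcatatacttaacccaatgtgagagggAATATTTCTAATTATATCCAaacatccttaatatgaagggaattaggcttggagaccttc
Myh4: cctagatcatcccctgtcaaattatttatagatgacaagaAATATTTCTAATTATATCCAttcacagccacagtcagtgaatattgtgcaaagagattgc

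Counted from the listed start site, the shared run began at position -170 in Myh2, -166 in Myh1 and -177 in Myh4. The listed starts of Myh2 and Myh4 are the first base of the annotated gene, whereas that of Myh1 lies 102 bases inside it, so its position counts from a site downstream of the gene's first base. It was found on either strand in 5 of 33469 promoter windows of the same length (0.0149%), the other 2 being windows of the chromosome 10 locus LOC102555216. Over the 100 printed bases Myh2 and Myh4 had the same base at 52 positions, Myh1 and Myh2 at 49, and Myh1 and Myh4 at 45. The 6-letter TATA motif TATAAA was present in each of the 3 fast windows and in 14.2% of all windows. An E-box, CANNTG, was found 3 times in the Myh4 window, 4 times in the Myh7 window and in neither of the others, against 72.1% of all windows. A match to the MEF2 consensus stood in the Myh1 and Myh4 windows (3.29% of all windows), each time overlapping a TATAAA match on the other strand, and a CArG box in the Myh4 window alone of these 4 (1.64% of all windows). The listed Myh7 start lies 1657 bases inside the annotated gene, so its window is not printed. These matches describe the letters only, and both strands were searched.

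Because the chains are close paralogs, reads from stretches that Myh1, Myh2 and Myh4 share, or that Myh7 shares with Myh6, were divided between genes by the authors' pseudoalignment, and part of each value is uncertain for this reason. In whole muscle, fewer fibers of a type and less RNA per fiber cannot be told apart. The libraries kept had 7866 to 10948 symbols above 1 TPM, and read depth is unknown from these values. The skeletal muscle markers Acta1, Ckm and Des summed to between 79291 and 121900 TPM in the control muscles and to between 11352 and 29440 TPM in the injured muscles at 3 days, so all libraries carried muscle RNA, but less of it after injury. Over the same muscles the summed TPM of 7 leukocyte markers went from 12.6 to 31.2 in control to 3969 to 6513 at 3 days, and that of 5 fibroblast markers from 63.9 to 211 to 4035 to 12847. Their part in the member values was not tested, and for that reason the shares among the 4 members, in which RNA of cells without these chains cancels, are given after the levels. The median log2 fold change of all genes tested was 0.43 to 0.96 over the 8 comparisons of injured with uninjured muscle and 0.02 to 0.12 with median-of-ratios size factors. With that scaling the members' log2 fold changes in these comparisons were lower throughout.

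Control muscle was dominated by Myh4. Its TPM in the 4 control muscles was 26146, 23946, 23237 and 20929, that of Myh1 was 4560, 5105, 4650 and 3328, that of Myh2 was 1175, 1223, 793 and 670, and that of Myh7 was 100, 76.9, 81.7 and 130. The 4 ranges did not overlap, so the order Myh4, Myh1, Myh2, Myh7 held in each control muscle. As shares of the summed TPM of the 4 genes this was 81.2% ± 1.93 for Myh4, 15.1% ± 1.64 for Myh1, 3.28% ± 0.673 for Myh2 and 0.342% ± 0.120 for Myh7 (SD, n = 4 muscles of 2 rats). The same order held in 109 of all 114 muscles. In the other 5 Myh1 was above Myh4, and all 5 were injured muscles of running rats, 4 of them at 3 days.

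**Figure D1:**
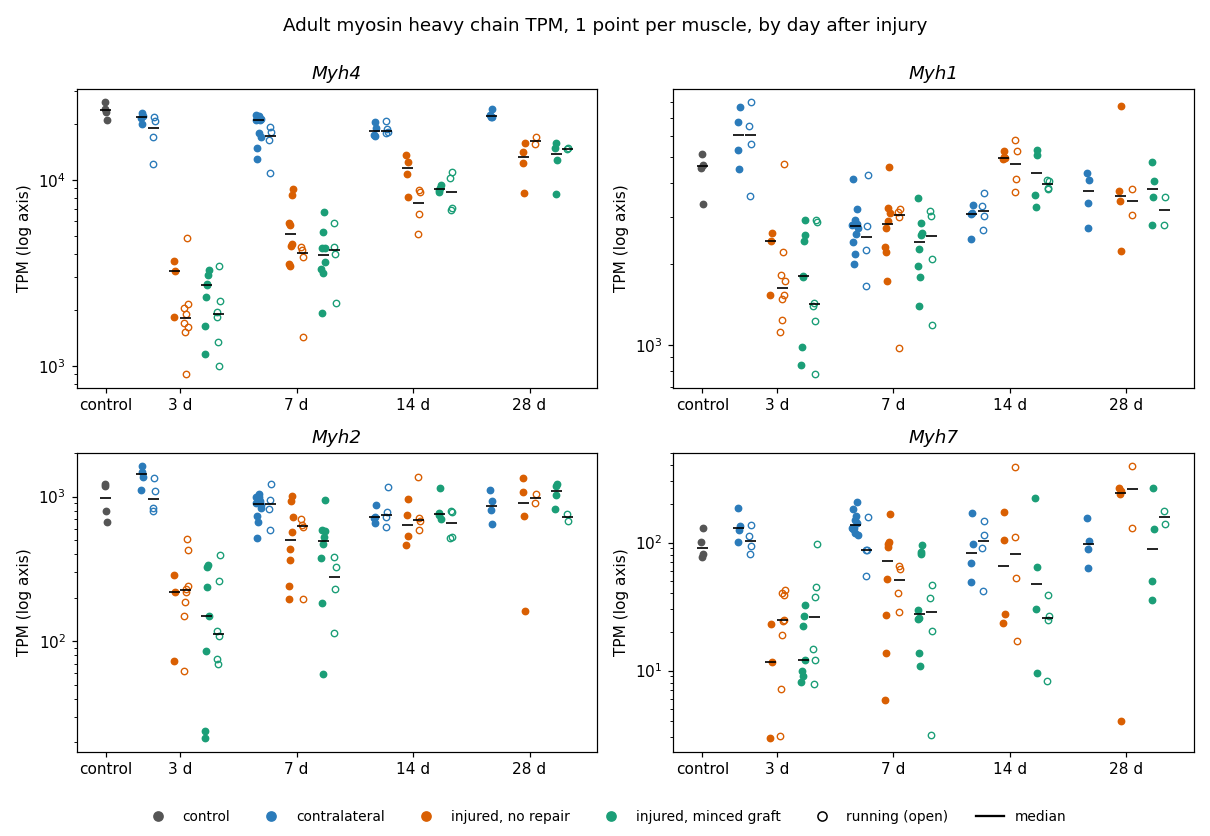
TPM (log axis) of Myh4, Myh1, Myh2 and Myh7 in every muscle by day after injury. Filled points are non-running and open points running rats, colors mark control, contralateral, non-repaired and minced graft muscles, and black lines are medians of each arm. At 3 days all injured muscles of non-running rats sit below all contralateral ones for each gene, and at 28 days this still holds for Myh4.

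The first comparison asked how the chains differed between the injured and the contralateral TA of non-running rats. At 3 days all 4 members fell, Myh4 8.54-fold, Myh2 10.2-fold, Myh7 10.3-fold and Myh1 3.07-fold. At 7 days Myh1 did not pass the test with TPM as deposited but was called lower with median-of-ratios size factors (-1.13). At 14 and 28 days Myh4 had the lowest estimate of the 4. At 14 days Myh7 was near it, at -0.73 (SE 0.74) against -0.89, and differences between members were not tested. Fold changes are differences of mean log2(TPM + 1) over both repair arms from limma, and a gene was called where its Benjamini-Hochberg adjusted p over all 11328 genes was under 0.05 and the change at least 2-fold.

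Myh4, the type IIB chain, was at 1152, 2728 and 3673 TPM (lowest, median and highest of 10) in the injured muscles at 3 days, and at 20035, 21401, 22090 and 22994 TPM in the contralateral ones. At 7 days the lowest, median and highest of the 16 injured muscles were 1912, 4363 and 8891, against 12871, 20981 and 22344 in the 10 contralateral ones. At 14 days the 8 injured muscles ran from 8035 over a median of 9224 to 13643 and the 4 contralateral ones were at 17152, 17325, 19088 and 20335. At 28 days they ran from 8348 over 13459 to 15760 against 21785, 21787, 22229 and 24009. On each of the 4 days every injured muscle was below every contralateral muscle. The log2 fold change was -3.10 (SE 0.27, adjusted p = 3.03e-18) at 3 days and -2.03 (SE 0.18, adjusted p = 4.43e-18) at 7 days, both called. At 14 days it was -0.89 (SE 0.27, adjusted p = 0.00251) and at 28 days -0.85 (SE 0.27, adjusted p = 0.00465), which are under the 2-fold limit and so not called. With median-of-ratios size factors both were past that limit, at -1.58 and -1.38.

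Myh1, the type IIX chain, was at 845, 2120 and 2913 TPM (lowest, median, highest) in injured muscle at 3 days against 4500, 5314, 6734 and 7638 in contralateral muscle. At 7 days it was at 1400, 2583 and 4590 against 2002, 2757 and 4143, and at 14 days at 3263, 4963 and 5298 against 2466, 3057, 3091 and 3313. The groups did not overlap at 3 days, overlapped at 7 days except for 4 injured muscles below and 1 above all contralateral ones, and at 14 days 7 of the 8 injured muscles were above every contralateral one. The log2 fold change was -1.62 (SE 0.29, adjusted p = 5.56e-07, called) at 3 days, -0.10 (SE 0.20, adjusted p = 0.619) at 7 days, 0.63 (SE 0.29, adjusted p = 0.0438) at 14 days and 0.08 (SE 0.29, adjusted p = 0.82) at 28 days. With size factors the value at 7 days was -1.13 and past both limits, and those at 14 and 28 days changed sign to -0.054 and -0.46, so that the direction for Myh1 at these late days rests on the scaling.

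Myh2, the type IIA chain, was at 21.4, 185 and 335 TPM in injured muscle at 3 days against 1111, 1358, 1488 and 1622 in contralateral muscle. At 7 days it was at 58.9, 495 and 1011 against 518, 890 and 1038, and at 28 days at 161, 1054 and 1342 against 645, 801, 926 and 1116. The groups were apart at 3 days, 8 of 16 injured muscles were below all contralateral ones at 7 days, and the ranges overlapped at 28 days. In limma the log2 fold change was -3.35 (SE 0.51, adjusted p = 5.89e-09, called) at 3 days and -0.97 (SE 0.34, adjusted p = 0.00617) at 7 days, just under the 2-fold limit. Leaving out replicate 4 of the non-repaired contralateral muscles at 7 days moved the latter to -1.07 and past the limit, and size factors moved it to -1.99 (adjusted p = 1.62e-07). At 14 and 28 days it was -0.02 (SE 0.51) and -0.06 (SE 0.51), with adjusted p of 0.982 and 0.925. With 1 muscle left out these ran from -0.11 to 0.065 and from -0.24 to 0.27, so neither kept its sign.

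Myh7, the slow chain, was at 2.97, 11.9 and 32.2 TPM in injured muscle at 3 days against 101, 125, 136 and 187 in contralateral muscle, with no overlap. At 7 days it was at 5.92, 40.8 and 168 against 115, 137 and 206, and 15 of the 16 injured muscles were below every contralateral one. At 28 days the injured muscles spread from 4 over a median of 184 to 267, past both ends of the contralateral values of 63.2, 89.7, 103 and 154. For Myh7 the log2 fold change was -3.36 (SE 0.73, adjusted p = 2.52e-05) at 3 days and -1.82 (SE 0.49, adjusted p = 0.000455) at 7 days, both called, and -0.73 (SE 0.74, adjusted p = 0.369) and -0.10 (SE 0.74, adjusted p = 0.915) later. The value at 28 days changed sign when any 1 of 5 muscles was left out, and was 0.61 (adjusted p = 0.431) without non-repaired injured replicate 4. Its standard errors were the largest of the 4 members on each day.

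**Figure D2:**
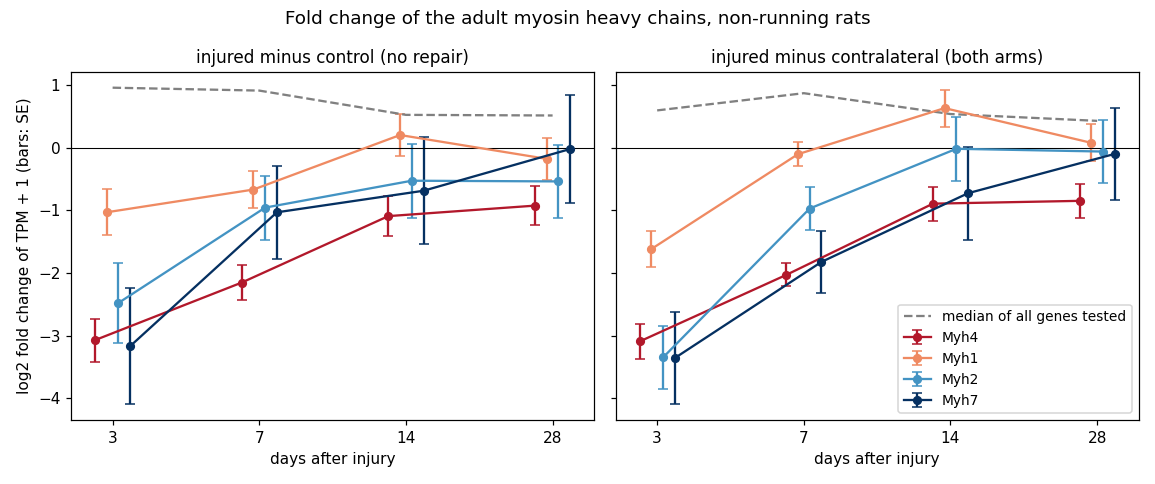
Log2 fold change of TPM + 1 by day for the 4 members in injured against control muscle (left) and against contralateral muscle (right) of non-running rats. Points are limma estimates, bars are standard errors, and the dashed line is the median of all genes tested. All 4 start far below 0 at 3 days, and at 28 days Myh4 is the lowest, at -0.92 against control and -0.85 against contralateral muscle.

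All 4 members were thus called at 3 days, where 41.2% of all genes tested were called, 6.39% lower and 34.8% higher. At 7 days 2 of 4 were called, against 46.5% of all genes, 2.62% lower and 43.8% higher, and with size factors all 4 were, beside 13.1% of all genes lower. None of the 4 was called at 14 or 28 days, when limma called 23.7% (0.344% lower and 23.4% higher) and 16.2% (0.265% lower and 16% higher). At an unadjusted p under 0.05 Myh1 and Myh4 differed at 14 days and Myh4 at 28 days. Of 11328 genes 8934 and 8357 were under this limit on those days. Of the called genes 84.49% to 98.55% were higher in injured muscle with TPM as deposited and 59.4% to 79.5% with size factors.

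Against control muscle, in rats without repair, the order was similar. At 3 days the 3 injured muscles had 1823, 3673 and 3245 TPM of Myh4, 1528, 2441 and 2600 of Myh1, 73.4, 286 and 220 of Myh2 and 2.97, 23.1 and 11.7 of Myh7, each below all 4 control muscles. Injury changed the log2 level by -3.07 (SE 0.34, adjusted p = 1.38e-13) for Myh4, by -1.03 (SE 0.37, adjusted p = 0.00774) for Myh1, -2.48 (SE 0.64, adjusted p = 0.00027) for Myh2 and -3.17 (SE 0.92, adjusted p = 0.00123) for Myh7. All 4 were called, beside 52.6% of all genes (4.24% lower, 48.3% higher). The call for Myh1 was lost without injured replicate 1 (-0.79), control replicate 2 (-0.95) or control replicate 3 (adjusted p = 0.0162, just under the 2-fold limit), and when the dropped libraries were kept (-1.03, adjusted p = 0.0894). At 7 days Myh4 alone was called, at -2.15 (SE 0.27, adjusted p = 2e-11), where 48.1% of all genes were (2.42% lower, 45.6% higher). Myh1, Myh2 and Myh7 were then at -0.67, -0.96 and -1.03, with adjusted p of 0.0297, 0.0724 and 0.182, and each was called with size factors, beside 14% of all genes lower.

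At 14 days Myh4 was at 13643, 10805, 8035 and 12467 TPM in non-repaired injured muscle, all below the 4 control values. The difference of -1.09 on the log2 scale (SE 0.32, adjusted p = 0.00159) was called, beside 25.5% of all genes (0.547% lower, 25% higher), but not without injured replicate 3 (-0.94) or with the dropped libraries kept (adjusted p = 0.057). At 28 days it was at 12365, 14127, 8536 and 15760 TPM, again below all control muscles. That difference was -0.92 (SE 0.32, adjusted p = 0.00744), under the 2-fold limit, but it passed without injured replicate 4 (-1.04) and with size factors (-1.60, adjusted p = 2.87e-05, beside 3.12% of all genes lower). With TPM as deposited no member was called by limma at 28 days, when 21.3% of all genes were (0.212% lower, 21.1% higher). Myh4 was then the only member with an unadjusted p under 0.05, where 8344 of 11328 genes had such a p. The other members were at 0.20, -0.53 and -0.69 at 14 days and at -0.18, -0.54 and -0.02 at 28 days for Myh1, Myh2 and Myh7. With size factors the Myh1 value at 14 days turned to -0.49. The 4 control muscles served all days, so these values are not independent of each other. They came from 2 rats, and limma counted them as 4 samples.

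The non-repaired muscles at 28 days differed widely among themselves. Myh7 was at 266, 239, 251 and 4 TPM in replicates 1 to 4, and Myh2 at 1083, 1342, 733 and 161 TPM. Replicate 4 was the lowest of the 4 in Myh1, Myh2 and Myh7 and the highest in Myh4, at 86.8% of the family. Replicate 3 had 7705 TPM of Myh1, 44.7% of the family, against 12.3% to 21.4% in the other replicates. Without replicate 4 the Myh7 log2 fold change against control went from -0.02 to 1.40 (adjusted p = 0.131), and the values for Myh1 and Myh2 turned to 0.084 and 0.13.

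The shares of the 4 chains moved in a way that the levels alone hide. In the 22 non-running rats with both muscles, Myh1 took 14.2% ± 3.90 of the family in the contralateral and 31.7% ± 8.39 in the injured muscle (SD), and Myh4 81.6% ± 4.4 and 62.0% ± 8.79. The Myh1 share was higher in the injured muscle of 22 of 22 rats, by between 3.10 and 27.2 percentage points with a mean of 17.5 ± 7.01. The Myh4 share was lower in 22 of 22 rats, by a mean of 19.6 ± 7.72 percentage points. Both had p = 1e-05, the smallest that the 100000 resamples can give, in a two-sided permutation test that flipped the sign within rats, and 2e-05 after adjustment over the 4 members.

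The Myh2 share went from 3.76% ± 0.802 to 5.67% ± 2.96 and was higher in 17 of the 22 rats, a mean difference of 1.91 ± 3.15 percentage points (permutation p = 0.00928, adjusted p = 0.0124). As a log2 ratio to the other 3 members the Myh2 difference was 0.39 and no longer passed (adjusted p = 0.164), so the Myh2 call depends on the scale. The Myh7 share was 0.529% ± 0.193 and 0.707% ± 0.510, higher in 11 rats and lower in 11 (permutation p = 0.109). Keeping the dropped libraries, leaving out any 1 rat or adding the developmental chains Myh3 and Myh8 to the sum left the calls for Myh1 and Myh4 as they were.

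**Figure D3:**
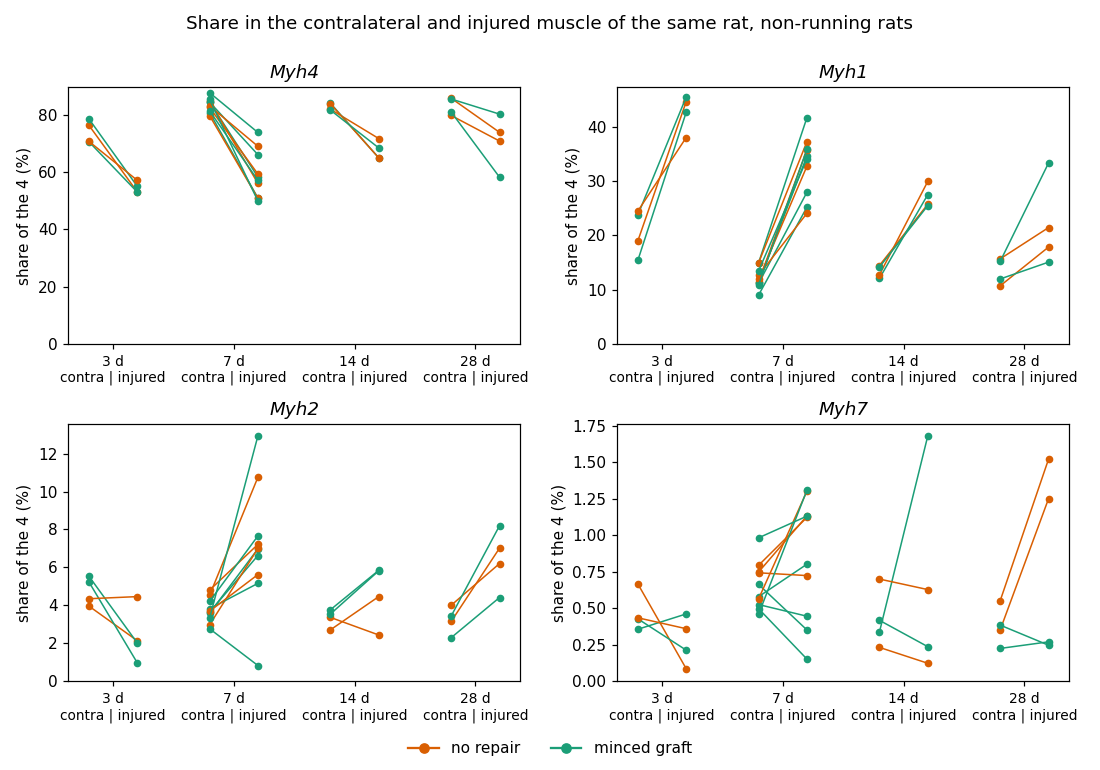
Share (%) of each member among the summed TPM of the 4 genes in the contralateral and injured muscle of each of the 22 non-running rats, joined by a line and set out by day. Orange lines are rats without repair and green lines rats with a minced graft. Every Myh4 line goes down and every Myh1 line goes up, while lines for Myh2 and Myh7 go both ways.

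By day, the within-rat difference of the Myh1 share was 22.0 ± 6.12 percentage points at 3 days, 20.7 ± 4.70 at 7 days, 13.8 ± 2.99 at 14 days and 8.52 ± 6.60 at 28 days (SD, n = 4, 10, 4 and 4 rats). That of Myh4 was -19.5 ± 4.79, -24.3 ± 7.05, -15.3 ± 4.35 and -12.2 ± 7.52 percentage points. With 10 rats at 7 days both reached the smallest two-sided exact sign-flip p of 0.00195 (adjusted p = 0.00391), and Myh2 rose by 3.34 ± 3.04 percentage points (exact p = 0.00781, adjusted p = 0.0104), a call that was lost on the log2 ratio to the other 3 members (0.75, adjusted p = 0.0625). With 4 rats the exact test cannot go below 0.125, the value reached by Myh1 and Myh4 on each of the other days. At 3 days the Myh2 share was lower in 3 of 4 rats (mean difference -2.37 ± 1.94), and at 28 days higher in 4 of 4 (3.23 ± 1.3).

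Over all non-running injured muscles, the Myh1 share had a median of 42.7% at 3 days (range 33.6% to 45.9%), 34.4% at 7 days (24.1% to 41.7%), 28.7% at 14 days (25.5% to 36.5%) and 19.7% at 28 days (12.3% to 44.7%). The highest contralateral value on those days was 24.5%, 15.0%, 14.5% and 15.7%. All injured muscles were thus above all contralateral muscles at 3, 7 and 14 days, and 6 of 8 at 28 days. The Myh4 share had medians of 53.3%, 58.1%, 65.0% and 72.4% and lay below all contralateral muscles in all injured muscles at 3, 7 and 14 days and in 6 of 8 at 28 days.

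**Figure D4:**
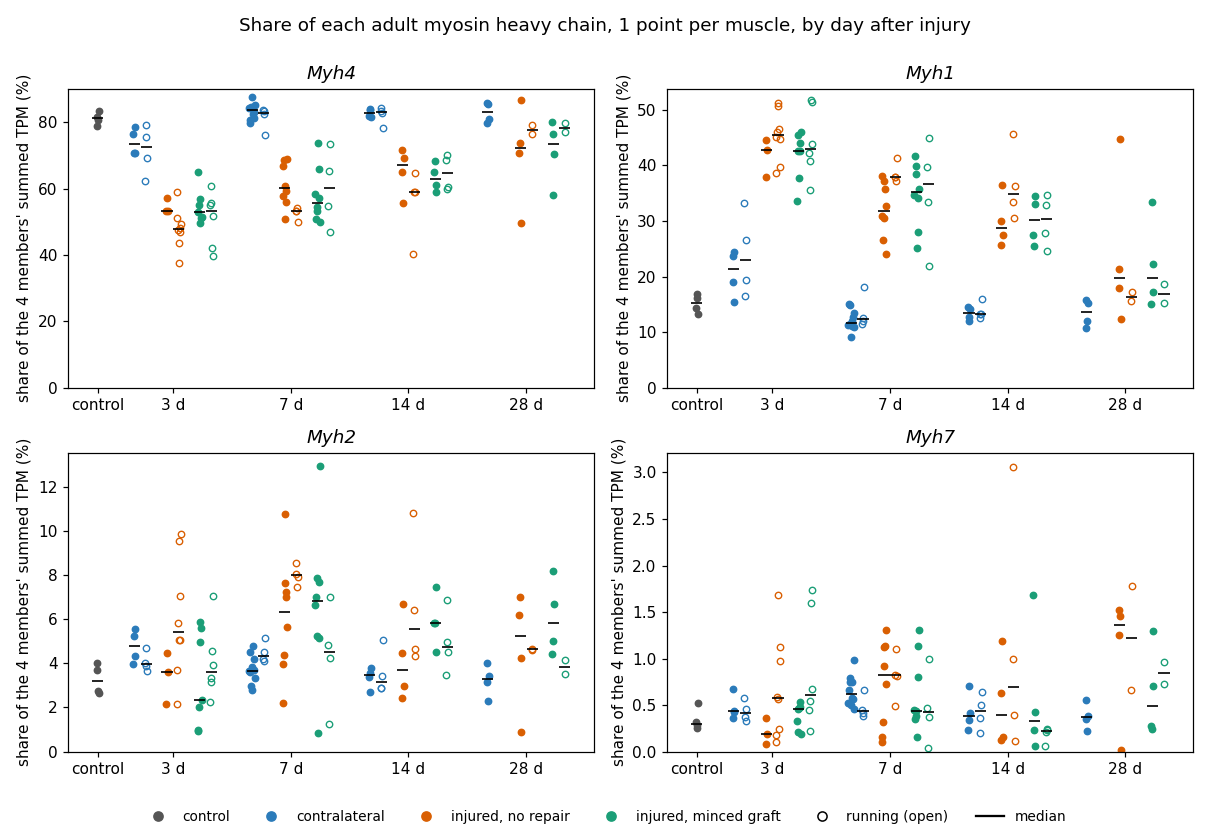
Share (%) of each member among the summed TPM of the 4 genes, 1 point per muscle, by day after injury, with filled points for non-running and open points for running rats and black lines at the medians of each arm. Over both arms the injured Myh1 medians of non-running rats go from 42.7% at 3 days to 19.7% at 28 days, and the injured Myh4 medians from 53.3% to 72.4%.

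Between 3 and 28 days the Myh1 share of injured muscle fell by 18.7 percentage points (permutation within repair arms, p = 0.00189, adjusted p = 0.00756, 8 against 10 muscles) and the Myh4 share rose by 16.2 percentage points (p = 0.00522, adjusted p = 0.0104). The Myh2 and Myh7 shares differed by 2.0 and 0.55 percentage points, with adjusted p of 0.0715 and 0.0664. Both passed without non-repaired replicate 4 of 28 days, at 2.62 and 0.72 percentage points (adjusted p = 0.0114), and Myh7 also without minced graft replicate 1 or 2. Against control muscle, the share of Myh1 in non-repaired muscle was 41.8% ± 3.40, 32.0% ± 5.0, 29.9% ± 4.70 and 24.1% ± 14.3 at 3, 7, 14 and 28 days, and that of Myh4 54.6% ± 2.25, 61.2% ± 6.50, 65.4% ± 7.09 and 70.3% ± 15.4. The exact two-sided permutation test gave p = 0.00202 for both at 7 days (adjusted p = 0.0162 over 16 tests, 8 against 4 muscles). These tests treat the 4 control muscles as separate although they came from 2 rats. With the muscles averaged per rat the differences at 7 days were 16.9 percentage points for Myh1 and -20.1 for Myh4, and both reached the smallest exact p that 8 against 2 allows, 0.0222 (adjusted p = 0.178), so that no test against 2 control rats passed on any day. Over the single control muscles, at 3 and 14 days both reached the smallest exact p that 3 or 4 against 4 muscles allow, 0.0286 (adjusted p = 0.0762). At 28 days exact p was 0.229 for Myh1 and 0.171 for Myh4. Without replicate 4 all 4 members reached the smallest exact p that 3 against 4 muscles allow, 0.0286 (adjusted p = 0.0457). The differences were then 12.9 percentage points for Myh1 and -16.5 for Myh4. Without replicate 3 the differences were 2.08 and -4.09 percentage points, and neither passed.

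A further measure set each member against 13 muscle genes that all fiber types use, such as Acta1, Ckm and Mb, so that a general loss of muscle RNA cancels. It was chosen after the levels and shares had been seen. On this scale Myh4 was lower in the injured muscle of 22 of 22 rats, by a mean log2 ratio difference of -0.87 ± 0.46 (permutation p = 1e-05, adjusted p = 4e-05), and Myh1 was higher in 18 of 22, by 0.68 ± 0.52 (permutation p = 2e-05, adjusted p = 4e-05). For Myh1 the difference was -0.04 ± 0.26 at 3 days, 1.06 ± 0.31 at 7 days, 0.75 ± 0.20 at 14 days and 0.41 ± 0.45 at 28 days. For Myh4 it was -1.55 ± 0.38, -0.88 ± 0.35, -0.57 ± 0.21 and -0.49 ± 0.11, lower in each rat on each day. Myh2 and Myh7 differed by -0.11 ± 1.37 and -0.42 ± 1.45 over all days, with adjusted p of 0.719 and 0.263, but Myh2 was lower in 4 of 4 rats at 3 days (-2.29 ± 1.21) and higher in 4 of 4 at 28 days (0.74 ± 0.36).

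The injury effect itself changed with time for all 4 members. The log2 fold change of injured over contralateral muscle was higher at 14 and 28 days than at 3 and 7 days by 1.22 (SE 0.27, adjusted p = 6.34e-05) for Myh1, 2.12 (SE 0.47, adjusted p = 5.84e-05) for Myh2, 1.69 (SE 0.25, adjusted p = 1.31e-08) for Myh4 and 2.18 (SE 0.69, adjusted p = 0.00389) for Myh7. All 4 were called, against 14.9% of all genes and 2.93% in this direction. In injured muscle alone Myh2 rose by 2.60 (SE 0.41), Myh4 by 2.3 (SE 0.22) and Myh7 by 2.81 (SE 0.60) on the log2 scale between 3 and 28 days (30.9% of all genes called, 4.94% higher). Myh1 was at 0.97 (SE 0.24, adjusted p = 0.000145), just under the limit, and it was called with size factors (1.48, beside 10.1% of all genes higher) and when any 1 of 5 muscles was left out (up to 1.1). Myh2 and Myh7 rose between 3 and 7 days, by 1.63 and 1.64 (6.96% of all genes called, 2.24% higher), and Myh4 between 7 and 14 days, by 1.14 (8.88% of all genes called, 0.865% higher). Just under the 2-fold limit were Myh4 between 3 and 7 days, at 0.83 (adjusted p = 0.000111), and Myh1 between 7 and 14 days, at 0.88 (adjusted p = 0.000106). Myh2 was at 0.80 (adjusted p = 0.0381) between 7 and 14 days. Between 14 and 28 days limma called no member, and none had an unadjusted p under 0.05. Of all genes 1.13% were called, and 3354 of 11328 had such a p.

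The contralateral muscle of non-running rats was compared with control to see whether the unoperated leg changed. No member was called in these 16 tests, with log2 fold changes from -0.70 to 0.59, where limma called 7.15%, 1.04%, 1.03% and 0.512% of all genes at 3, 7, 14 and 28 days. The single unadjusted p under 0.05 was for Myh1 at 7 days (-0.70, adjusted p = 0.0878), where 3192 of 11328 genes had such a p. In non-running rats contralateral Myh1 nonetheless spanned 4500 to 7638 TPM at 3 days and 2002 to 4143 TPM at 7 days. These ranges did not overlap, nor did those of its share, 15.4% to 24.5% and 9.03% to 15.0%. In running rats the lowest contralateral value at 3 days was 3567 TPM (16.6%) and the highest at 7 days 4266 TPM (18.1%). With these muscles the days overlapped. This difference between days was not tested. At 3 days 5 of 5 fibroblast and 5 of 7 leukocyte markers were called higher in contralateral than in control muscle, and their part in these values was not tested.

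The minced graft was compared with no repair in the injured muscles of non-running rats. No member was called by limma on any day, with log2 fold changes from -0.62 to 0.70, but few genes were, 0.00883%, 0.0883%, 0.0265% and 0% of all genes at 3, 7, 14 and 28 days. Of 11328 genes 3064 at 7 days and 141 at 28 days had an unadjusted p under 0.05. Myh4 at 7 days was the only member test with an unadjusted p under 0.05, at -0.46 (SE 0.22, adjusted p = 0.171). Averaged over days the graft arm differed by 0.18 percentage points in the Myh1 share, 0.91 in that of Myh2, -1.02 in that of Myh4 and -0.07 in that of Myh7, with 23 against 19 muscles, and no permutation p within days was under 0.197. In running rats the differences were -2.66 percentage points for Myh1, -2.01 for Myh2, 5.05 for Myh4 and -0.37 for Myh7, and Myh2 passed (adjusted p = 0.00684).

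In running against non-running injured muscle no member was called in 16 tests, with log2 fold changes from -0.45 to 1.04 and 0.0177%, 0%, 0% and 0.309% of all genes called at 3, 7, 14 and 28 days. At 3, 7 and 14 days 1815, 1786 and 586 of 11328 genes had an unadjusted p under 0.05. Of the 16 member tests only Myh4 at 3 days had an unadjusted p under 0.05 (-0.45, SE 0.20, adjusted p = 0.236). In the contralateral muscles of running rats no member was called in 12 tests and none had an unadjusted p under 0.05. Of all genes limma called 0.265%, 0.00883% and 0% at 3, 7 and 14 days, and 1420, 1523 and 128 had such a p. The share differences, running minus non-running within day and repair arm, were 0.82 percentage points for Myh1, 0.28 for Myh2, -1.28 for Myh4 and 0.18 for Myh7 (34 against 42 muscles), and no permutation p was under 0.224. In running rats the injured Myh1 share had medians of 44.9%, 37.9%, 33.2% and 16.3% at 3, 7, 14 and 28 days, the same order of days as without running.

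Genes that work with the fast chains moved beside Myh4. Most muscle genes of all fiber types and the slow light chains Myl2 and Myl3, given below, were also lower at 3 days. The early fall was thus not particular to fast-fiber genes. Of 11 fast-fiber genes for light chains, troponins, calcium handling and the Z-disc, 11 were called lower than contralateral at 3 days (median log2 fold change -2.03, against 0.60 for all genes) and 9 at 7 days (-1.32 against 0.87). None was called at 14 or 28 days with medians of -0.49 and -0.33, where 6.39%, 2.62%, 0.344% and 0.265% of all genes were called lower on the 4 days. With size factors 8 and 5 were called lower at 14 and 28 days, beside 4.99% and 2.18% of all genes. Against control the counts called lower were 11, 7, 2 and 1, where 4.24%, 2.42%, 0.547% and 0.212% of all genes were. Actn3, the fast-fiber alpha-actinin, was at -2.96 at 3 days and Atp2a1, the calcium pump of fast fibers, at -2.83. All 11 had a higher injury effect late than early, with a median of 1.57.

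Of 13 slow-fiber genes, 5 were called lower and 4 higher than contralateral at 3 days, 3 and 6 at 7 days, 0 and 7 at 14 days, and 0 and 5 at 28 days, with medians of 0.32, 0.80, 1.01 and 0.77. Of all genes 34.8%, 43.8%, 23.4% and 16% were called higher and 6.39%, 2.62%, 0.344% and 0.265% lower, so the counts called higher at 3 and 7 days were near the share of all genes. The slow light chains Myl2 and Myl3, partners of Myh7, were at -4.65 and -3.54 at 3 days and not called at 28 days. Casq2, the cardiac and slow-fiber calcium store protein, was at 2.45, 3.34, 3.13 and 2.52 and Csrp3, a muscle LIM protein, at 3.19, 3.21, 3.01 and 2.20, higher on each day. With size factors 4 of the 13 were called higher and 2 lower at 14 days, and 4 and 1 at 28 days, beside 11.8% of all genes higher and 4.99% lower at 14 days and 8.47% and 2.18% at 28 days. Against control 6, 8, 6 and 7 were called higher, where 48.3%, 45.6%, 25% and 21.1% of all genes were, and 4, 2, 0 and 0 lower, where 4.24%, 2.42%, 0.547% and 0.212% were.

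**Figure D5:**
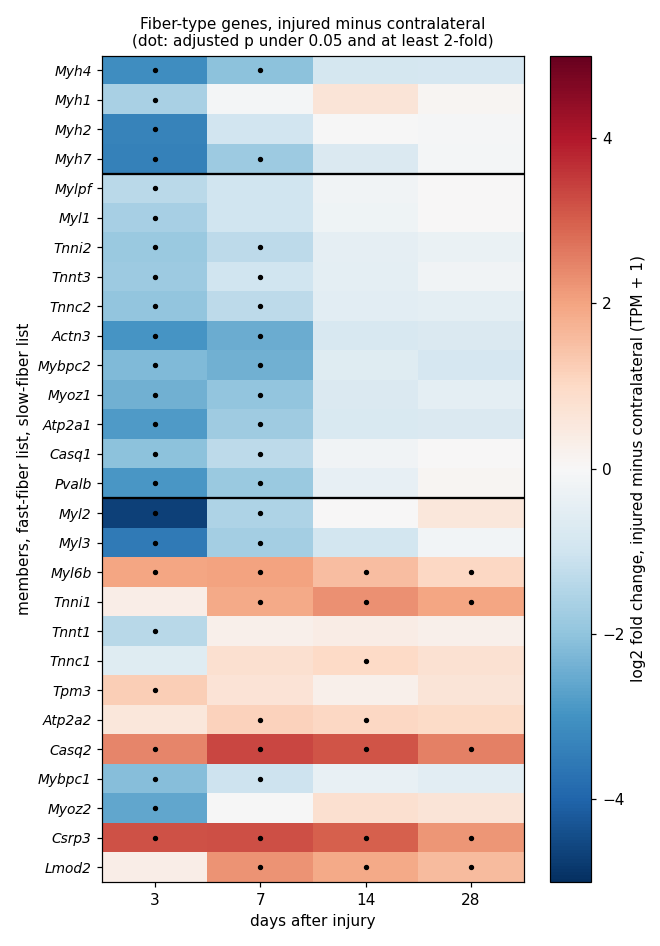
Log2 fold change (TPM + 1) of injured minus contralateral muscle in non-running rats at 3, 7, 14 and 28 days for the 4 members, 11 fast-fiber and 13 slow-fiber genes, colored from blue (lower) to red (higher). Dots mark genes called by limma. The fast-fiber block is blue at 3 and 7 days, while the slow-fiber block holds both colors.

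Of 10 glycolytic enzymes 9 were called lower than contralateral at 3 days, 10 at 7 days, 2 at 14 days and 0 at 28 days, with medians of -2.64, -1.80, -0.78 and -0.64, where 6.39%, 2.62%, 0.344% and 0.265% of all genes were called lower. With size factors 10 and 7 were called lower at 14 and 28 days, beside 4.99% and 2.18% of all genes. Of 15 oxidative enzymes with values 8 were called lower at 3 days, 1 at 7 days and 0 later, with medians of -1.01, -0.42, -0.16 and -0.02. Of the 13 muscle genes of all fiber types 10, 8, 1 and 1 were called lower, with medians of -1.99, -1.14, -0.31 and -0.28. Des, the intermediate filament desmin, was at -0.05, 0.08, 0.12 and -0.28 and never called.

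Of the other sarcomeric and nonmuscle class II chains, 8 of 10 listed had values. Myh3, the embryonic chain of new fibers, was at 1.55 to 2.91 TPM in control and at 9.23 to 103 TPM in injured muscle at 3 days. It was at 105 to 359 at 7 days, 70.2 to 297 at 14 days and 10.3 to 107 at 28 days. Myh3 was called higher than contralateral on each day, although the contralateral range at 3 days, 6.8 to 17.2 TPM, overlapped the injured one. Myh8, the perinatal chain, was at 1.40 to 8.01 TPM at 3 days, overlapping the contralateral range of 4.49 to 7.32, and at 114 to 244 TPM at 7 days. Its log2 fold change was -0.30 at 3 days and 4.96, 4.51 and 2.61 after that, called on the later days. Myh6, the alpha chain next to Myh7, was at -2.40 and -1.40 at 3 and 7 days, both called. Myh9 and Myh10 of nonmuscle cells were called higher on 4 and 2 of the 4 days. Of all genes 34.8%, 43.8%, 23.4% and 16% were called higher on these days. Called lower at 3 and 7 days were 6.39% and 2.62%.

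Among 27 fiber-type regulators with values, 9 were called lower and 3 higher than contralateral at 3 days, 1 and 5 at 7 days, and 0 and 4 at both 14 and 28 days, with medians of -0.53, 0.10, 0.17 and 0.08. The counts called higher were below the share of all genes called higher on each day (34.8%, 43.8%, 23.4% and 16%), and 6.39%, 2.62%, 0.344% and 0.265% of all genes were called lower. Those lower at 3 days included Tbx15 (-1.84), a transcription factor of fast glycolytic fibers, Sox6 (-1.29), a repressor of slow genes, and Ppargc1a (-2.01), the coactivator of mitochondrial genes. Myog, the myogenic differentiation factor, was called higher on each day, at 4.31, 4.70, 3.33 and 4.07. Rcan1, a target and regulator of calcineurin, was at 2.02 and 2.31 at 3 and 7 days. Of 6 genes for myosin folding and turnover, Smyd1, the methyltransferase that aids myosin assembly, was lower at 3 days (-1.74) and Hsp90aa1, its chaperone partner, higher at 3, 7 and 14 days (2.3, 2.11 and 1.03). The ubiquitin ligases Trim63 and Fbxo32, which mark muscle protein for breakdown, were not called against contralateral muscle on any day.

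Across all 114 muscles the genes most like each member were taken by Pearson correlation of log2(TPM + 1). Myl3, Myl2 and Ldhb were among the 5 of both Myh2 and Myh7. For Myh4 they were Atp2a1 (r = 0.985), Pygm (0.984), Pgm1 (0.983), Pfkm (0.978) and Cacna1s (0.978), which serve calcium handling and glycogen use. For Myh2 they were Myl3 (0.944), Mgst3 (0.899), Myl2 (0.895), Ldhb (0.892) and Myot (0.891). For Myh7 they were Myh6 (0.989), LOC102546391 (0.935), Myl2 (0.903), Myl3 (0.858) and Ldhb (0.835), and Myh6 is the gene with which it shares most sequence. For Myh1 they were Nrap (0.862), Svil (0.843), Myadml2 (0.830), Synpo2 (0.824) and Ndrg2 (0.813), none of them above 0.87. Among the members themselves the correlation over all muscles was between 0.522 (Myh1 with Myh7) and 0.797 (Myh2 with Myh7). Over the 38 uninjured muscles alone it was between 0.168 (Myh4 with Myh7) and 0.702 (Myh1 with Myh2), and over the 76 injured ones between 0.474 (Myh4 with Myh7) and 0.802 (Myh1 with Myh2). The muscles share the injury, the day and the loss of muscle RNA, so these correlations are descriptions.

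Markers of other cells were compared on the same days, on which 34.8%, 43.8%, 23.4% and 16% of all genes were called higher than contralateral. Against contralateral muscle 7 of 7 leukocyte markers were called higher at 3, 7 and 14 days and 5 at 28 days, and 5 of 5 fibroblast markers on each day. Of 5 endothelial markers 1, 4, 3 and 2 were called higher, the count at 3 days being below the share of all genes. Of 4 Schwann cell markers 1 was called lower at 3 days and 1 higher on each later day, and of the 3 adipocyte markers tested 1 was called lower at 3 days and 2 higher at 28 days. No marker of these lists was at 0 in any injured muscle of non-running rats. The part of these cells in the TPM levels was not tested.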

How the data were processed

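Total RNA of whole TA muscle was sequenced by the authors as paired-end TruSeq libraries, pseudoaligned with Kallisto to the rat genome (build 6.0) and deposited as 1 TPM table over all libraries, and the submitters' processing notes also name DESeq. Read depth per library is unknown from these TPM values. Groups were taken from the sample labels, which name no sequencing batch. Of 138 libraries 9 whose muscle or day the labels leave unclear were left out of comparisons (8 at 28 days), and 13 with fewer than 7000 symbols above 1 TPM were dropped, 10 of them at 7 and 3 at 3 days, 8 running and 5 non-running. For 2 muscles with more than 1 library the libraries were averaged, and 2 muscles were lost with the dropped libraries.

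Genes with a mean of at least 1 TPM in some group were tested on log2(TPM + 1) with limma 3.58.1 in R 4.3.3, in 1 model of all 31 groups (83 residual degrees of freedom). Fold changes on this scale understate the change of low genes. Calls needed a Benjamini-Hochberg adjusted p under 0.05 and a log2 fold change of at least 1. Shares were percentages of the summed TPM of the 4 members and were tested by permutation (Python 3.11.15, numpy 2.4.6), two-sided, exact up to 10 rats and in comparisons with control, otherwise with 100000 resamples, adjusted over the 4 members (over all 16 tests against control). The limma step was checked on simulated data. Replicates are muscles of different rats, except that the 4 control muscles came from 2 rats. The limma p-values against control, and the exact ones over single muscles, ignore that these share rats. Deviations of the 34 same-rat pairs had a mean correlation of 0.094, against 0.00 for different rats, and injured and contralateral muscles of 1 rat were treated as paired in the share test. Text names the 4 members, genes of fixed lists, and the 5 tested genes most alike to each member. The members and lists were chosen with earlier results of these data known. Promoter sequences are RefSeq's (GRCr8), a later build than the authors used. Alternatives covered the pseudocount, filter, scaling, pairing, libraries and single muscles left out, for the fold changes 71 muscles of the smaller groups.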

Additional observations from a re-analysis of the deposited data

Results flagged for a closer look

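In 9 of 128 groups of values with 4 to 10 muscles, 1 muscle stood apart from the others by Dixon's criterion, which chance meets in about 1 in 20 groups. Replicate 6 of the running, non-repaired injured muscles at 3 days was the highest of 8 in Myh1, at 4698 TPM with the next at 2211, and in Myh4, at 4868 TPM with the next at 2143.5. In the graft arm's contralateral muscles at 7 days replicate 2 was high in Myh1 at 4143 TPM and replicate 5 low in Myh4 at 17023 TPM. The lowest Myh1 value of the running, non-repaired injured muscles at 7 days was 977 TPM, with the next at 2986.

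At 14 days Myh2 was high in 1 grafted muscle of a non-running rat (1141 TPM) and in 1 non-repaired muscle of a running rat (1366 TPM), and the Myh7 share was low in 1 grafted muscle of a running rat (0.056%). At 28 days Myh7 was at 4 TPM in replicate 4 of the non-repaired muscles, with the next at 239, and results with and without it stand in the report.

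The effect of injury against contralateral muscle was higher at 14 and 28 days than at 3 and 7 days, by 1.22 for Myh1, 2.12 for Myh2, 1.69 for Myh4 and 2.18 for Myh7 on the log2 scale. The effect of the graft on the Myh2 share differed between running and non-running rats by -2.93 percentage points, being -2.01 in running and 0.91 in non-running rats (permutation p = 0.00765, adjusted p = 0.0306, 34 and 42 muscles). That comparison was chosen after the data were seen, and the other members had adjusted p of 0.457, 0.344 and 0.426.

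Among the 9 libraries that the labels put in no group, Myh7 was above the highest control value of 130 TPM in 5 libraries of 28 days, at 179.5, 244, 237, 223 and 329.9 TPM.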

How the results depend on the processing

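Of the members' log2 fold changes, 345 of 360 values under other settings and 412 of 446 with 1 muscle left out kept their direction and side of the limits, as did 251 of 260 and 228 of 240 for the shares and all 80 ratios to the muscle genes. No member became called in contralateral against control, graft or running comparisons in any of 31 combinations of comparison and setting. The cause of the changes below was not tested.

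Median-of-ratios size factors moved the change against control to -1.76 for Myh1, -2.05 for Myh2 and -2.10 for Myh7 at 7 days, to -0.49 for Myh1 at 14 days and to -1.60 for Myh4 at 28 days. Against contralateral muscle they gave -1.13 for Myh1 and -1.99 for Myh2 at 7 days, -0.054 for Myh1 and -1.58 for Myh4 at 14 days, and -0.46 for Myh1 and -1.38 for Myh4 at 28 days, and between 3 and 28 days 1.48 for Myh1. With the dropped libraries kept, Myh1 against control was at -1.03 (adjusted p = 0.0894) at 3 days and -1.02 (adjusted p = 0.0358) at 7 days and Myh4 at -1.09 (adjusted p = 0.057) at 14 days.

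With the control muscles averaged per rat, an alternative chosen after seeing the data, the 7-day share differences from control were 16.9 for Myh1 and -20.1 for Myh4 (adjusted p = 0.178, at the smallest exact p).

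As log2 ratios the within-rat Myh2 difference was 0.39 (adjusted p = 0.164) over all days and 0.75 (adjusted p = 0.0625) at 7 days and the graft difference of Myh7 0.21. With Myh3 and Myh8 in the sum the graft difference of Myh1 was -0.17, and in running rats it was -2.66 for Myh1, -2.01 for Myh2 (adjusted p = 0.00684) and 5.05 for Myh4.

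With 1 muscle left out, changes against control ranged from -1.17 to -0.79 for Myh1 at 3 days, from -1.19 to -0.94 for Myh4 at 14 days, and at 28 days from -0.51 to 0.084 for Myh1, -0.89 to 0.13 for Myh2, -1.04 to -0.75 for Myh4 and -0.52 to 1.40 for Myh7. Against contralateral muscle Myh2 ranged from -1.07 to -0.90 at 7 days and -0.11 to 0.065 at 14 days, and at 28 days Myh1 from -0.091 to 0.25, Myh2 from -0.24 to 0.27 and Myh7 from -0.36 to 0.61. Myh1 between 3 and 28 days ranged from 0.81 to 1.1. For these log2 fold changes 71 muscles of the smaller groups were left out in turn. Injured muscles of non-running rats at 7 days and grafted muscles at 3 days were not among them. Share differences from control ranged from -0.401 to 0.758 percentage points for Myh2 at 3 days, -0.0408 to 0.316 for Myh7 at 14 days, and at 28 days 2.08 to 12.9 for Myh1, 0.498 to 2.54 for Myh2, -16.5 to -4.09 for Myh4 and 0.569 to 1.07 for Myh7. Between 3 and 28 days they ranged from 1.60 to 2.62 for Myh2 and 0.438 to 0.723 for Myh7.

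With the rat as a replicate block the same 22 of 112 member tests were called and the largest shift of a log2 fold change was 0.029, so the pairing changed no call of a member. Counts over all genes moved by over 1.5 times in 38 of 225 cases and those of the gene lists in 90 of 1216, 62 of them with size factors and 22 with the dropped libraries kept. With a pseudocount of 0.1 the calls of contralateral against control were 2292, 573, 576 and 339 at 3, 7, 14 and 28 days in place of 810, 118, 117 and 58, and those of injured against contralateral 4173 and 3300 at 14 and 28 days in place of 2689 and 1838.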

Other observations

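In the 8 unassigned libraries of 28 days, all from running rats, title and label name opposite muscles, so they entered no comparison. Their Myh4 shares were 82.1%, 73.0%, 81.4%, 69.9%, 80.3%, 65.1%, 73.7% and 71.9%, and their Myh1 shares 14.0%, 20.8%, 14.4%, 22.5%, 15.7%, 29.0%, 19.996% and 19.8%. Myh7 in these libraries ran from 75.9 to 329.9 TPM. The unassigned library of 3 days had a Myh4 share of 85.5% and a Myh1 share of 11.3%.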
